A study of Mus musculus with 40 samples.

Results

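The comparison described here is that of 5 KI with 5 WT forebrains at E18.5, an embryonic stage shortly before birth in the mouse. KI is the name the labels give to mice of genotype Chd8 KI, which carry an added copy of Chd8, and WT mice are labelled wild-type. All genes of the comparison were taken: the authors' deposited table for E18.5 lists 15449 genes, of 17974 listed for E18.5 or for E14.5, the other stage of the study. Each library was made from polyadenylated RNA of the forebrain of a male embryo. The site of the added copy, the promoter that drives it and the litters of the embryos are not given in the sources used here, so the p-values measure the spread between these libraries. Where the RNA of a cell type differs in such whole-tissue samples, fewer cells of that type and less RNA per cell cannot be told apart.

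CHD8 is a chromatin remodeler, an enzyme of the chromodomain helicase family that uses ATP to move or evict nucleosomes. Loss of 1 copy of the human gene is a well-known cause of autism with a large head. CHD8 has been linked to the Wnt and p53 pathways and to the division of neural progenitors. At E18.5 most cortical neurons have been born, glial cells are starting to form, and interneurons from the ventral forebrain are still entering the cortex.

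Few genes passed the test of KI against WT at this stage. In the authors' deposited table, 13601 of the 15449 genes have an adjusted p-value (Benjamini-Hochberg, from DESeq2's Wald test), and a gene is called changed here when it is under 0.05. By that rule 9 genes changed, 0.0662% of those tested: 6 rose (0.0441%) and 3 fell (0.0221%). At an unadjusted p under 0.05 there were 810 genes (5.96%), 426 higher in KI (3.13%) and 384 lower (2.82%). Of all tested genes, 6639 (48.8%) had a log2 fold change above 0, and the median was −0.0018, with 5th and 95th percentiles of −0.17 and 0.16. A log2 fold change of 1 would be a doubling, and 1 tested gene, Bc1, was that far from 0. As a check of the forebrain label, the forebrain markers Emx1, Emx2, Lhx2 and Dlx2 are listed, while the midbrain and hindbrain markers En1, En2, Hoxa2 and Hoxb2 are not among the genes listed. Of the list of markers of regions outside the forebrain, Gbx2, which is also expressed in the thalamus, is the 1 tested gene, at 0.70 (SE 0.224, adjusted p = 0.347) per the authors' deposited table; Tph2, the serotonin synthesis enzyme gene, chosen after its value was seen, is listed without an adjusted p.

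**Figure D1:**
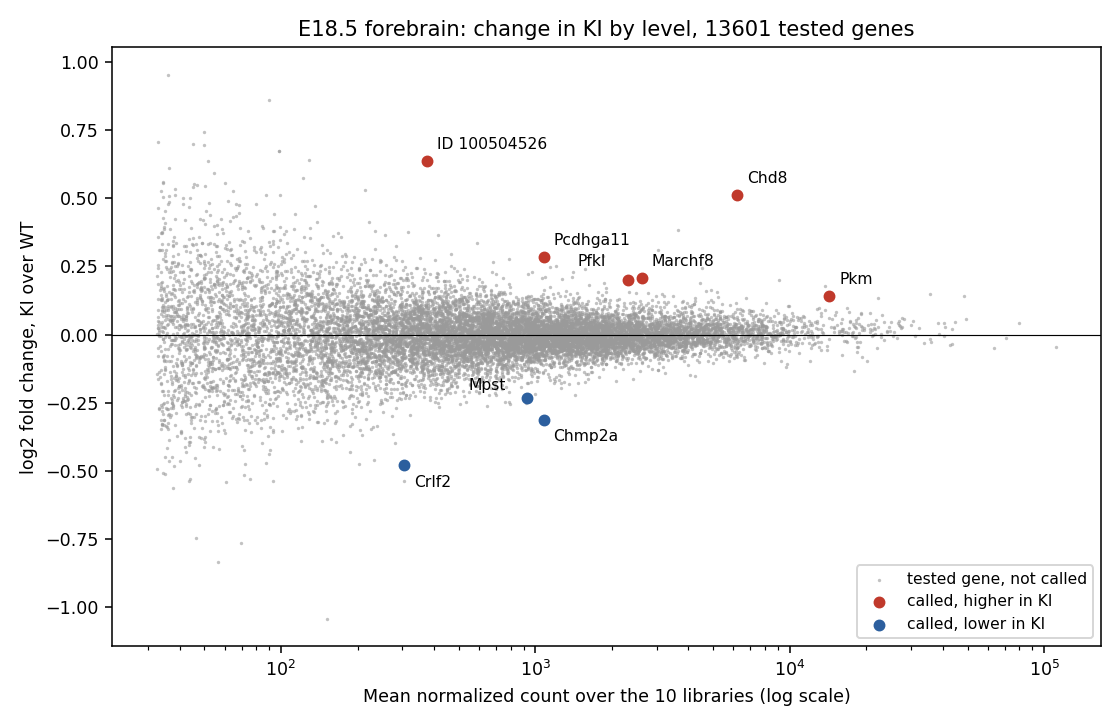
Log2 fold change of KI over WT (vertical axis) against the mean normalized count over the 10 libraries (horizontal axis, log scale), 1 point per gene with an adjusted p. The 9 called genes are labelled, with Chd8 and the gene of ID 100504526 highest above 0 among them and Crlf2 lowest.

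Chd8 itself rose most clearly. Per the authors' deposited table it stood at 0.51 (SE 0.038, adjusted p = 1.34e-37), which is 42.5% above WT, with a 95% interval of 0.44 to 0.59 on the log2 scale. The headers do not name the numerator, so the direction of every value here was read from Chd8, and its sign is no separate check of the labels.

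Pkm and Pfkl, which code for enzymes of glycolysis, the pathway that splits glucose to pyruvate, both rose. Pkm makes pyruvate kinase, which catalyses the last step. It lies on chromosome 9 at 59656576 to 59679372 (RefSeq, GRCm38.p6) and stood at 0.14 (SE 0.030, adjusted p = 0.00841) per the authors' deposited table, 10.3% above WT. Pfkl makes the liver-type phosphofructokinase, which controls entry into the pathway. It lies on chromosome 10 at 77986947 to 78009807 and stood at 0.20 (SE 0.047, adjusted p = 0.0299) per the authors' deposited table, 14.9% above WT. A pair of isomerases of the same pathway stood on the same side, but did not pass. Gpi1, glucose-6-phosphate isomerase, was at 0.13 (SE 0.037, adjusted p = 0.169) per the authors' deposited table. Tpi1, triosephosphate isomerase, was at 0.14 (SE 0.040, adjusted p = 0.184) per the authors' deposited table. Without Pkm and Pfkl, 12 of the other 15 glycolysis genes were above 0, with a median of 0.08. The members below 0 were Hk1, Ldhb and Aldoc. Hk1, the main brain hexokinase, and Ldhb, a lactate dehydrogenase subunit chosen after its value was seen, were at −0.01 (SE 0.037) and −0.01 (SE 0.042) per the authors' deposited table. Aldoc, an aldolase of radial glia and astrocytes, was at −0.10 (SE 0.055) per the authors' deposited table.

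Marchf8, a membrane-bound ubiquitin ligase that marks surface receptors for removal, also rose. It lies on chromosome 6 at 116337599 to 116409540 and stood at 0.21 (SE 0.039, adjusted p = 0.000386) per the authors' deposited table, 15.4% above WT. Of the other 9 tested MARCH family genes 8 were above 0 (median 0.05), and none passed. The lowest p of them was that of Marchf6, a ligase of the endoplasmic reticulum, at 0.09 (SE 0.034, adjusted p = 0.628) per the authors' deposited table.

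Pcdhga11 is one of the clustered protocadherins, adhesion proteins of which each neuron makes its own combination. It rose to 0.28 (SE 0.064, adjusted p = 0.0165) per the authors' deposited table, 21.8% above WT. The gamma genes share their last exons, and the annotated span of Pcdhga11 overlaps 25 other annotated genes, so its reads may in part be those of its neighbours. Its neighbours did not all lie on one side: Pcdhga9 stood at 0.53 (SE 0.139, adjusted p = 0.0996), and Pcdhga12 (chosen after its value was seen) at −0.18 (SE 0.065) per the authors' deposited table. Over the other 32 tested protocadherins of the list, 20 were above 0, with a median of 0.07. From the alpha cluster, Pcdha10, which is not in the list, stood at 0.64 (SE 0.168, adjusted p = 0.101) and Pcdha1 at 0.39 (SE 0.202, adjusted p = 0.877) per the authors' deposited table. The last rise was that of a gene with no symbol in the reference table (NCBI Gene ID 100504526), at 0.64 (SE 0.118, adjusted p = 0.00031) per the authors' deposited table.

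Chmp2a had the lowest p-value of the 3 falls. It codes for a subunit of ESCRT-III, the filament that cuts membrane necks when vesicles bud into endosomes and when dividing cells part. It lies on chromosome 7 at 13032006 to 13034777 and fell by 0.31 on the log2 scale (SE 0.057, adjusted p = 0.000258) per the authors' deposited table, a change of −19.5% from WT. Over the other 22 tested ESCRT genes, 18 were below 0 and 4 above, but their median was only −0.03 and none passed. Vps4b, the ATPase that takes the filament apart, stood at −0.12 (SE 0.059) per the authors' deposited table. Hgs, of the complex that first binds cargo, stood at −0.08 (SE 0.040) per the authors' deposited table. Both were chosen after their values were seen. Chmp6, another ESCRT-III subunit, lay on the other side at 0.24 (SE 0.104, adjusted p = 0.770) per the authors' deposited table.

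Crlf2, the receptor subunit for thymic stromal lymphopoietin, an immune cytokine, had the largest fold of the falls. It lies on chromosome 5 at 109554709 to 109559128 and stood at −0.48 (SE 0.103, adjusted p = 0.00854) per the authors' deposited table, with a 95% interval of −0.68 to −0.28. The other cytokine receptor and signalling genes of its list were divided, 7 above 0 and 6 below (median 0.02). Il6st, the shared receptor of the interleukin 6 family, was at −0.02 (SE 0.071) and Cntfr, the receptor of ciliary neurotrophic factor, at 0.14 (SE 0.065, adjusted p = 0.805) per the authors' deposited table.

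Mpst, a sulfurtransferase that makes hydrogen sulfide from cysteine products, was the third gene to fall and the nearest to the threshold. It lies on chromosome 15 at 78406712 to 78414015 and stood at −0.23 (SE 0.055, adjusted p = 0.0391) per the authors' deposited table. Just outside the threshold was Ift122, at an adjusted p of 0.0520. Over the other 16 tested genes of sulfur amino acid and glutathione metabolism, 6 were above 0 and 10 below (median −0.01). Cbs, another source of hydrogen sulfide, was at 0.06 (SE 0.097) and Gpx4, which reduces lipid peroxides, at −0.10 (SE 0.044, adjusted p = 0.770) per the authors' deposited table.

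The RefSeq promoters of 5 called genes with a named role are shown, from 250 bases before to 50 after the first start in the table, 5′ to 3′ on the strand of the gene (build GRCm38.p6), because Pkm and Pfkl rose together and Chmp2a and Crlf2 fell. Capitals mark 2 motifs on either strand: GGGCGG, the GC box bound by SP family factors, and ACGTG, the core of the hypoxia response element, which also lies within the E-box CACGTG. The regions are chr9:59656326-59656625 (+) for Pkm, chr10:78009758-78010057 (−) for Pfkl, chr6:116337772-116338071 (+) for Marchf8, chr7:13034728-13035027 (−) for Chmp2a and chr5:109558944-109559243 (−) for Crlf2.
Pkm: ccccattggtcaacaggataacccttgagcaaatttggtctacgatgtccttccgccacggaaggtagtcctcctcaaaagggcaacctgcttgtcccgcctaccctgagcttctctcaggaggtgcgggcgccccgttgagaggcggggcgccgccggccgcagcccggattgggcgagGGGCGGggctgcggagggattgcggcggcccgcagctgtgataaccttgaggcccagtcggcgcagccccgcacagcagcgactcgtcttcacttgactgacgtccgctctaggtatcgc
Pfkl: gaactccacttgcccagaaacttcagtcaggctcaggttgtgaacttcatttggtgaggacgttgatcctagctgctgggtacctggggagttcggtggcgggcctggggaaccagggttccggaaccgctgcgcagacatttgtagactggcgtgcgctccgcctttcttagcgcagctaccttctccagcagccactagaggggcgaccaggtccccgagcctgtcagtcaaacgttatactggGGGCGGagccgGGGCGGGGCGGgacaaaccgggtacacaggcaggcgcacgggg
Marchf8: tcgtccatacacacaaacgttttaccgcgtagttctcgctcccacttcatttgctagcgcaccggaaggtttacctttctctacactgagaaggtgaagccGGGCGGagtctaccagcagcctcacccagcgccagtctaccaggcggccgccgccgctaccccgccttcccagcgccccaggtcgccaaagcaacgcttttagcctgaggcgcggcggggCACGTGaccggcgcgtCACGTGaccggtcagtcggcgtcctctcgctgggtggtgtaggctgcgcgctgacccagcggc
Chmp2a: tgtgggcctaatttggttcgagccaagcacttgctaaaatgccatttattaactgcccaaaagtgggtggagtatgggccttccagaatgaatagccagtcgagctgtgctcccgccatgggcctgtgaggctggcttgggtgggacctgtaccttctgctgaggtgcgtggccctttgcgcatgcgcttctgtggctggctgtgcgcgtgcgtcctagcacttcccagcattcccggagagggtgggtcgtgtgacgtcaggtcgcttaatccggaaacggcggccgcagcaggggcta
Crlf2: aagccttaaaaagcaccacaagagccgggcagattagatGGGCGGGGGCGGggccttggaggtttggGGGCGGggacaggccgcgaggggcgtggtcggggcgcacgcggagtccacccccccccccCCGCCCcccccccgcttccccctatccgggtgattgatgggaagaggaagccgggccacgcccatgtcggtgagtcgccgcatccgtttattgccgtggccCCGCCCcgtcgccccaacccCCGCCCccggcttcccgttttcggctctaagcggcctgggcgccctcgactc

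GGGCGG was found 1 time in the Pkm window, 3 times in that of Pfkl, 1 time in that of Marchf8, 6 times in that of Crlf2, and not in that of Chmp2a (counting overlapping copies). Of 10600 tested genes with a promoter in the table, 65.7% hold it, against 35.9% of all 27025 promoters. ACGTG was found in the window of Marchf8 alone among the 5, where CACGTG occurs 2 times and each copy is read on both strands. Of the 17 glycolysis promoters, 10 (58.8%) hold GGGCGG and 7 (41.2%) hold ACGTG. The latter is in 25.9% of the promoters of tested genes and in 19.7% of all. Both shares of a motif are descriptions of letters in these windows, and Pkm has 2 starts in the table, of which the first is shown. For Marchf8 and Crlf2 the start used lies inside the annotated gene span given above. The whole Marchf8 window, with its CACGTG copies, is therefore within that span and not upstream of it.

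A further 31 genes had an adjusted p from 0.05 to under 0.2, 15 higher in KI and 16 lower, and did not pass. Ift122, a subunit of the complex that carries cargo back from the tip of primary cilia, was at −0.25 (SE 0.061, adjusted p = 0.0520) per the authors' deposited table. Anp32a, an acidic nuclear phosphoprotein that binds histones, was at 0.17 (SE 0.041) and Cntn4, a contactin that guides axons, at −0.40 (SE 0.097) per the authors' deposited table. Ifitm2, an interferon-induced membrane protein, was at 0.38 (SE 0.093) per the authors' deposited table. Other genes in this range have varied roles. Setd5, an autism gene related to histone methyltransferases, was at −0.15 (SE 0.038, adjusted p = 0.0532) and Phf21b, a PHD finger protein, at 0.25 (SE 0.064) per the authors' deposited table. Chd3, a remodeler of the NuRD complex, was at 0.13 (SE 0.039) and Nasp, a histone chaperone, at 0.11 (SE 0.033) per the authors' deposited table. Prmt8, a membrane-anchored arginine methyltransferase of the brain, was at 0.22 (SE 0.061) per the authors' deposited table. Neuronal and glial genes were in this range too. Nnat, an imprinted proteolipid of developing neurons, was at 0.15 (SE 0.039) and Draxin, a repulsive cue for commissural axons, at −0.15 (SE 0.042) per the authors' deposited table. Olig1, a transcription factor of the oligodendrocyte lineage, was at −0.22 (SE 0.060) per the authors' deposited table. Of genes that handle RNA or make protein, Parn, which trims poly(A) tails, was at −0.22 (SE 0.062) and Pum3, a nucleolar RNA-binding protein, at −0.14 (SE 0.039) per the authors' deposited table. The ribosomal protein genes Rps27 and Rplp2 were at 0.24 (SE 0.063) and 0.19 (SE 0.051) per the authors' deposited table. Genes of other functions lay on both sides. Per1, a clock gene, stood at −0.17 (SE 0.050) and Spint2, a protease inhibitor, at 0.30 (SE 0.082) per the authors' deposited table. Cyb561, a cytochrome of secretory vesicles, stood at 0.21 (SE 0.060) and Plpp5, a lipid phosphatase, at −0.25 (SE 0.066) per the authors' deposited table. Also on the low side were Gmppa, which regulates GDP-mannose synthesis (−0.21, SE 0.061), Dnajc4 (−0.39, SE 0.111), Zcchc24 (−0.25, SE 0.070), Lrrc61 (−0.26, SE 0.076) and Nif3l1 (−0.19, SE 0.055) per the authors' deposited table. The largest falls in this range were those of Efcab12 (−0.54, SE 0.154) and Gt(ROSA)26Sor (−0.43, SE 0.121) per the authors' deposited table.

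**Figure D2:**
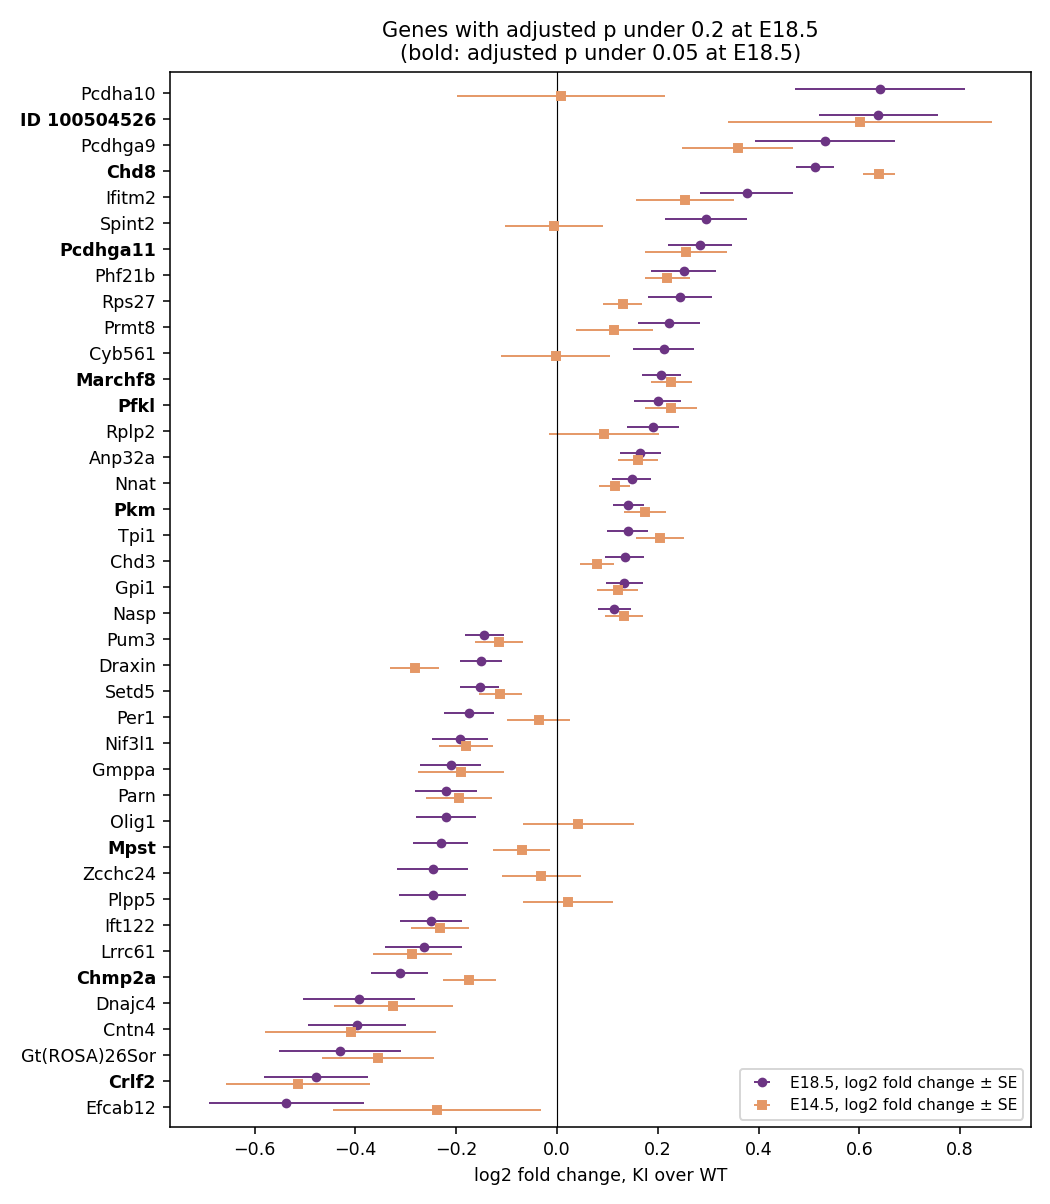
Log2 fold change with its SE at E18.5 (circles) and E14.5 (squares) for the 40 genes with an adjusted p under 0.2 at E18.5, in order of their value at E18.5. All 9 called genes (bold) have the same sign at both stages, while Pcdha10, Spint2, Cyb561, Olig1, Plpp5, Zcchc24 and Per1 lie near 0 at E14.5.

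The largest folds among tested genes whose mean normalized count reached 100 lay on both sides of 0. On the high side, beside Pcdha10, Pcdhga9 and Chd8, stood H2-K1, a class I histocompatibility gene whose reads can be shared with close paralogs, at 0.57 (SE 0.189, adjusted p = 0.409) per the authors' deposited table. Syde1, a GTPase-activating protein, was at 0.47 (SE 0.209) and Ano1, a chloride channel, at 0.41 (SE 0.170) per the authors' deposited table. Hbb-b1, an adult globin, was at 0.41 (SE 0.367) and Mettl7a1 at 0.39 (SE 0.145) per the authors' deposited table. None of these 5 passed. On the low side stood Bc1, a short RNA of dendrites, at −1.04 (SE 0.581, adjusted p = 0.924) per the authors' deposited table. Gsn, the actin-severing protein gelsolin, was at −0.47 (SE 0.180) per the authors' deposited table. Igf1, a growth factor, was at −0.46 (SE 0.374) per the authors' deposited table. The intervals of Bc1 (−2.18 to 0.10), Igf1 (−1.19 to 0.27) and Hbb-b1 (−0.31 to 1.13) span 0. Their SEs were 4.46, 3.50 and 3.38 times the median SE of genes of like mean normalized count (100 genes on either side).

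Gene lists were compared by counts and medians, beside the 48.8% of all tested genes above 0 and their median of −0.0018. At an unadjusted p under 0.05, 3.13% of all tested genes were higher in KI and 2.82% lower. Of 73 lists with at least 5 tested genes, 42 had a median above 0 and 31 below. Medians were small: 50 of the 73 lay within 0.05 of 0, and those of 3 lists reached 0.1 in size (MHC class I, interferon response, and the hypothalamus and diencephalon list with 6 tested genes). The genes called in the lists are the 8 called genes with a symbol; all are described above.

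**Figure D3:**
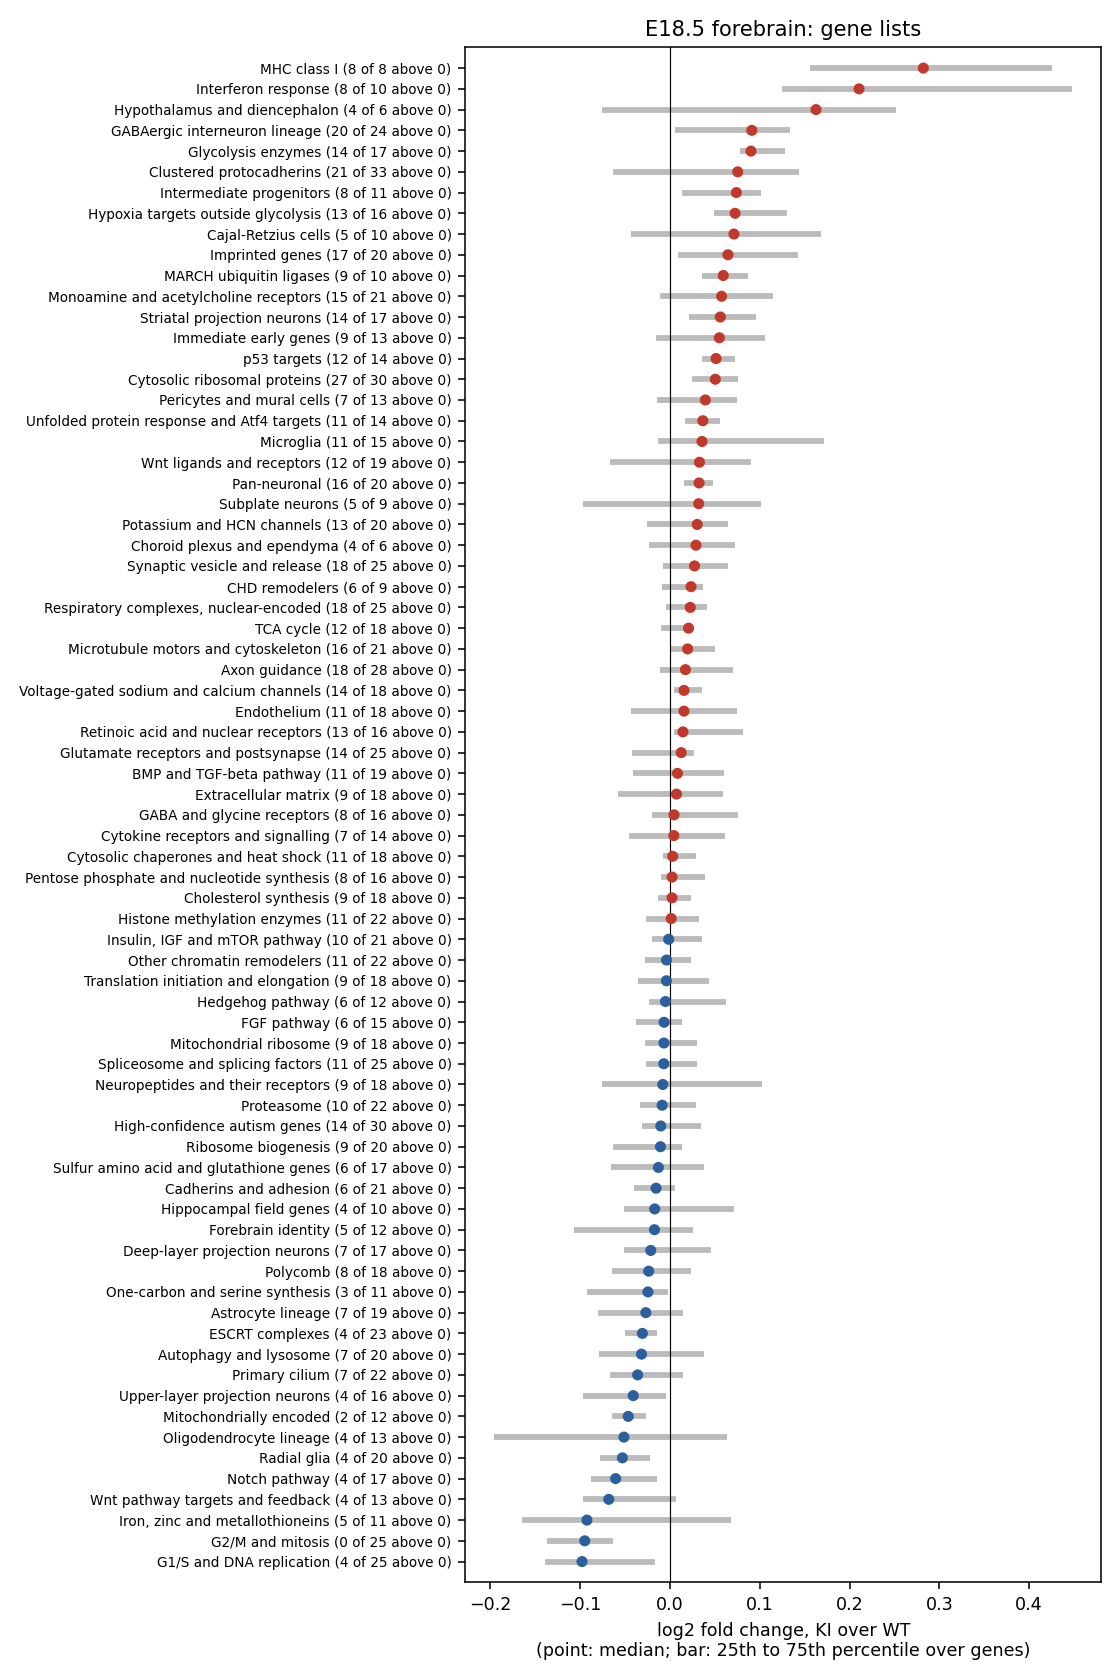
Median log2 fold change of KI over WT (points) with the interquartile range over genes (bars) for the 73 lists with at least 5 tested genes, and the number of genes above 0. MHC class I lies farthest to the right, with all 8 genes above 0, and the lists of DNA replication and mitosis farthest to the left.

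Notch pathway genes, Wnt targets and the lists of mitosis, DNA replication and radial glia were mostly below 0. Notch signalling keeps radial glia, the stem cells of the forebrain, from differentiating; 4 of its 17 tested genes were above 0 (median −0.06), and none passed. The receptors Notch1 and Notch2 were at −0.07 (SE 0.061) and −0.04 (SE 0.089) per the authors' deposited table. The feedback regulator Nrarp was at −0.13 (SE 0.057, adjusted p = 0.770) and the target Heyl at −0.22 (SE 0.168) per the authors' deposited table. Targets and feedback genes of the Wnt pathway also leaned down, 4 of 13 above 0 (median −0.07). Axin2, a standard readout of the pathway, was at −0.10 (SE 0.064) and Dkk3, a secreted Dickkopf family member, at −0.17 (SE 0.067, adjusted p = 0.695) per the authors' deposited table. The Wnt ligands and receptors did not lean that way, 12 of 19 being above 0 (median 0.03). Wnt7b, made by cortical neurons, was at 0.11 (SE 0.044, adjusted p = 0.695) and the receptor Ryk at −0.11 (SE 0.049) per the authors' deposited table. Of the genes of mitosis, 0 of 25 were above 0 (median −0.09). At an unadjusted p under 0.05, 4 were lower and 0 higher, against 2.82% and 3.13% of all tested genes. Mki67, of that list, was at −0.17 (SE 0.052, adjusted p = 0.266) per the authors' deposited table. Of DNA replication genes, 4 of 25 were above 0 (median −0.10), with 6 lower and 1 higher at that threshold. Radial glia had 4 of 20 above 0 (median −0.05). None of the genes in these lists passed. At E14.5 the 5 lists of Notch, Wnt targets, mitosis, DNA replication and radial glia had medians above 0. There 16 of 17 Notch genes, 10 of 12 Wnt targets, 22 of 25 genes of mitosis, 18 of 25 of DNA replication and 11 of 19 of radial glia were above 0. The difference between stages was not tested for lists. Of intermediate progenitors, the dividing cells between radial glia and neurons, 8 of 11 genes were above 0 (median 0.07), but their main marker Eomes was at −0.13 (SE 0.139) per the authors' deposited table. Hedgehog pathway genes (6 of 12 above 0) and FGF pathway genes (6 of 15) had medians of −0.0051 and −0.0066. Shh, the Hedgehog ligand of the ventral forebrain, had the widest value of its list, 0.55 (SE 0.244, adjusted p = 0.770) per the authors' deposited table.

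Genes of p53 targets, a pathway CHD8 has been reported to restrain, were above 0 in 12 of 14 (median 0.05), with none passing. Cdkn1a, the cell cycle inhibitor that is its classical target, was at 0.15 (SE 0.097, adjusted p = 0.984) and Mdm2, the ligase that degrades p53 and is also a target, at −0.11 (SE 0.055, adjusted p = 0.805) per the authors' deposited table, on the other side.

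Lists of neuron classes lay on both sides of the background, and none of their markers passed. Genes of the GABAergic interneuron lineage, which enters the cortex from the ventral forebrain, were above 0 in 20 of 24 (median 0.09). At an unadjusted p under 0.05, 6 were higher and 0 lower, against 3.13% and 2.82% of all tested genes. Gad1 and Gad2, which code for the enzymes that make GABA, were at 0.15 (SE 0.066, adjusted p = 0.770) and 0.12 (SE 0.051, adjusted p = 0.743) per the authors' deposited table. Of the 20 pan-neuronal genes, 16 lay above 0 (median 0.03). Of 17 genes of striatal projection neurons, the output cells of the ventral forebrain, 14 were above 0 (median 0.06). Zfp503, a zinc finger factor of the developing striatum, was at 0.25 (SE 0.10, adjusted p = 0.673) and the opioid peptide gene Penk at 0.19 (SE 0.077, adjusted p = 0.695) per the authors' deposited table. The dopamine receptor genes Drd1 and Drd2 were at −0.07 (SE 0.086) and 0.07 (SE 0.109) per the authors' deposited table. Upper-layer cortical neurons, which connect cortical areas and hemispheres, had 4 of 16 genes above 0 (median −0.04). Mef2c, an activity-regulated transcription factor, was at −0.10 (SE 0.039, adjusted p = 0.709) per the authors' deposited table. Deep-layer neurons had 7 of 17 above 0 (median −0.02), with Fezf2, which specifies corticospinal neurons, at −0.04 (SE 0.069) per the authors' deposited table. Of Cajal-Retzius cells, which line the cortical surface, 5 of 10 were above 0, and Reln, which codes for their secreted protein reelin, was at −0.03 (SE 0.054) per the authors' deposited table. Of the hippocampal field genes 4 of 10 were above 0 (median −0.02).

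Genes of the synapse and of excitability were close to the background, with small leanings up. Synaptic vesicle and release genes were above 0 in 18 of 25 (median 0.03), where Snap25, a protein of the fusion machinery, was at 0.11 (SE 0.041, adjusted p = 0.636) and the synapsin gene Syn1 at −0.03 (SE 0.052) per the authors' deposited table. Receptors for monoamines and acetylcholine were above 0 in 15 of 21 (median 0.06), with the serotonin receptor gene Htr3a, which also marks a class of interneurons, at 0.22 (SE 0.101, adjusted p = 0.798) per the authors' deposited table. Sodium and calcium channels were above 0 in 14 of 18 (median 0.02) and potassium and HCN channels in 13 of 20 (median 0.03). Glutamate receptor and postsynaptic genes were above 0 in 14 of 25 (median 0.01) and GABA and glycine receptors in 8 of 16 (median 0.0045). Gria1 and Gria2, subunits of the AMPA receptor, were at 0.06 (SE 0.036) and 0.04 (SE 0.055) per the authors' deposited table. Gabra2, a GABA receptor subunit, was at 0.18 (SE 0.073, adjusted p = 0.709) per the authors' deposited table.

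Axon guidance genes were above 0 in 18 of 28 (median 0.02). At an unadjusted p under 0.05 there were 5 on the high side and 1 on the low side, against 3.13% and 2.82% of all tested genes. Nrp2, a semaphorin receptor of migrating interneurons, was at 0.16 (SE 0.057, adjusted p = 0.503) and Slit1, a repulsive cue, at 0.13 (SE 0.058) per the authors' deposited table. On the low side was Sema3e, a ligand of Plxnd1, at −0.26 (SE 0.092, adjusted p = 0.550) per the authors' deposited table. Cadherins and adhesion genes were above 0 in 6 of 21 (median −0.02). Cntn4 is given above, and Cntnap2, an autism gene that also codes for an axonal adhesion protein, was at 0.13 (SE 0.048, adjusted p = 0.593) per the authors' deposited table. Primary cilium genes were above 0 in 7 of 22 (median −0.04). Bbs2, of the complex that sorts ciliary membrane proteins, was at −0.17 (SE 0.076, adjusted p = 0.770) per the authors' deposited table.

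Genes of antigen presentation had the highest median of the 73 lists with at least 5 tested genes, 0.28, with 8 of 8 above 0 and none passing. Besides H2-K1, the class I gene H2-D1 was at 0.24 (SE 0.082, adjusted p = 0.468) per the authors' deposited table. The peptide transporter gene Tap1 was at 0.44 (SE 0.209) and B2m, the shared light chain, at 0.32 (SE 0.282) per the authors' deposited table. Tap1 and B2m were chosen after their values were seen. Class I genes share reads with near-identical copies, and microglia, which also express them, had 11 of 15 tested markers above 0 (median 0.04). Of these, Csf1r was at 0.15 (SE 0.142) and Cx3cr1 at 0.03 (SE 0.167) per the authors' deposited table. The part of microglia in the class I values was not tested.

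Imprinted genes, which are read from 1 parental allele, were above 0 in 17 of 20 tested (median 0.06). Besides Nnat, the noncoding RNA Rian of the Dlk1-Meg3 cluster was at 0.18 (SE 0.054, adjusted p = 0.266) and its neighbour Meg3 at 0.14 (SE 0.157) per the authors' deposited table. Dlk1, of the same cluster and read from the other allele, was at −0.09 (SE 0.143) per the authors' deposited table. Peg3 and Peg10, which are read from the paternal allele, were at 0.14 (SE 0.069) and 0.29 (SE 0.144) per the authors' deposited table. These 3 were chosen after their values were seen.

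Among housekeeping groups, 27 of the 30 genes for cytosolic ribosomal proteins lay above 0 (median 0.05), with none passing. Of these 30, 9 were higher and 0 lower at an unadjusted p under 0.05, against 3.13% and 2.82% of all tested genes. Rps27 and Rplp2, given above, are among the higher ones. Other groups lay at the background. The spliceosome (11 of 25 above 0), proteasome (10 of 22), mitochondrial ribosome (9 of 18), cholesterol synthesis (9 of 18) and the pentose phosphate and nucleotide genes (8 of 16) each had a median within 0.01 of 0. Chromatin remodelers outside the CHD family (11 of 22 above 0, median −0.0039) and histone methylation enzymes (11 of 22, median 0.0013) did so as well. High-confidence autism genes were close to that (14 of 30, median −0.01). In these groups Smarca4, the ATPase of SWI/SNF complexes, was at −0.04 (SE 0.037), Kmt2a, a histone H3 lysine 4 methyltransferase, at −0.01 (SE 0.062) and Adnp, an autism gene, at −0.01 (SE 0.033) per the authors' deposited table. Polycomb genes were above 0 in 8 of 18 (median −0.02), with Bmi1, of the complex that ubiquitinates histone H2A, at −0.13 (SE 0.048, adjusted p = 0.571) per the authors' deposited table. Mitochondrially encoded genes were above 0 in 2 of 12 (median −0.05) and the nuclear-encoded respiratory genes in 18 of 25 (median 0.02). Subunits of the same complex, cytochrome oxidase, stood on both sides, with COX2 at −0.23 (SE 0.119) and Cox4i1 at 0.05 (SE 0.035) per the authors' deposited table.

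In 85 listed genes (0.55% of 15449) the authors' deposited table gives a log2 fold change and an SE but no p-value, so they are outside every count above. DESeq2 leaves the p-value blank when a single library weighs too heavily on a fit of a gene; the counts per library were not analysed here. These 85 genes had a median SE of 1.15, against 0.073 over tested genes, and in 82 of them the SE was larger than the fold. Many are genes of the coverings and fluid-making tissue of the brain. Of the 16 listed meningeal and fibroblast markers 11 had no p-value. Among them were the collagens Col1a1 (−0.20, SE 1.44), Col1a2 (0.14, SE 1.15) and Col3a1 (−0.13, SE 1.23) per the authors' deposited table. The matrix proteoglycan Dcn was at −0.14 (SE 1.17) per the authors' deposited table. Of the 14 listed markers of choroid plexus and ependyma 6 had none. Ttr, the thyroxine carrier that is the hallmark of the choroid plexus, was at 0.27 (SE 1.88) and Folr1, a folate receptor, at −0.17 (SE 1.39) per the authors' deposited table. Mrc1, a marker of macrophages at the brain's borders, was at 0.29 (SE 1.14) and Ptgds, a prostaglandin synthase of the meninges, at 0.66 (SE 1.69) per the authors' deposited table. Cdhr1, a cadherin of photoreceptors and of olfactory bulb output neurons, was at −1.39 (SE 0.750) per the authors' deposited table. These genes without a p-value were chosen after their values were seen.

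Set against genes of like mean normalized count, the SE was 42.4 times as large for Ttr, 23.3 for Ptgds and 14.8 for Igf2. The median of this ratio was 7.83 over the meningeal list, 3.01 over the choroid plexus list, 2.50 over extracellular matrix genes, 1.31 over pericytes and 1.13 over endothelium, but 0.96 over pan-neuronal genes and 0.98 over glycolysis. Upper-layer neuron genes, at 1.15, and interneuron genes, at 1.12, had ratios like that of endothelium. Of 10493 genes whose mean normalized count reached 200, 89 (0.848%) had a ratio of 3 or more. None of the 89 was called, but only 0.0662% of all tested genes were, and a wide SE itself makes a call less likely. Genes outside those lists also had wide errors, such as Rps27a, a ribosomal protein gene, at 0.38 (SE 0.344, ratio 8.04) per the authors' deposited table. Gja1, the gap junction gene of radial glia and astrocytes, was at 0.08 (SE 0.505, ratio 7.82), and the noncoding RNA Malat1 at 0.01 (SE 0.164, ratio 4.23) per the authors' deposited table. These 3 were chosen after their values were seen.

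**Figure D4:**
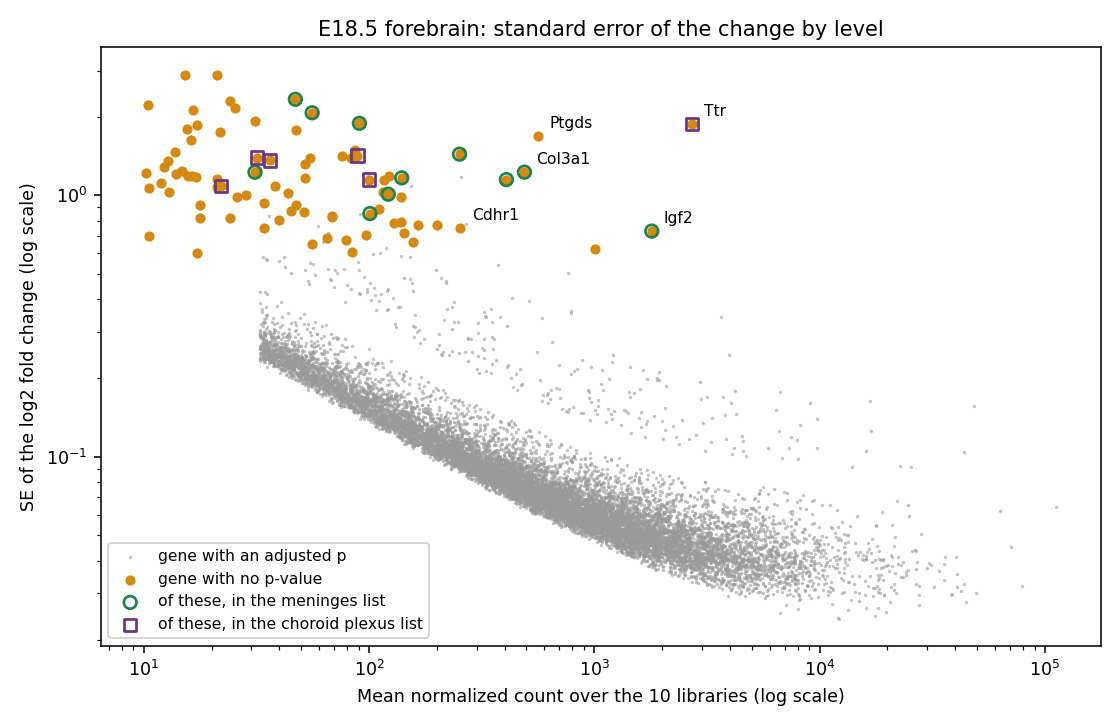
SE of the log2 fold change (vertical axis, log scale) against the mean normalized count over the 10 libraries (horizontal axis, log scale). The 85 genes with no p-value have SEs from 1.52 to 42.4 times those of genes of like level, and Ttr, at an SE of 1.88, has the highest ratio.

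By chromosome, the share of tested genes with an unadjusted p under 0.05 ranged from 4.56% (chromosome 17) to 8.81% (chromosome 6, 57 of 647 genes), against 5.96% over all. Chromosome 6 held 10 of the 57 genes with an unadjusted p under 0.001 (1.55% of its tested genes, against 0.361% elsewhere), and Chd8 itself lies on chromosome 14 (6.85%). The X chromosome had 8.02%, 30 genes higher in KI and 8 lower. Gt(ROSA)26Sor is a noncoding gene on chromosome 6 that is widely used as a site for added genes. Within 5 Mb of it, 10 of the 64 other tested genes (15.6%) were under 0.05, 7 higher in KI and 3 lower. Within 5 Mb of Chd8 itself 8 of 100 were under 0.05, 4 higher and 4 lower. Gt(ROSA)26Sor stood at −0.43 (SE 0.121, adjusted p = 0.179) and its neighbour Setd5, which starts 17 bases past its annotated end, at −0.15 (SE 0.038, adjusted p = 0.0532) per the authors' deposited table. Further along, Efcab12 (−0.54, SE 0.154), Ift122 (−0.25, SE 0.061) and Marchf8 (0.21, SE 0.039) lie 2.75, 2.82 and 3.30 Mb from it, and Cntn4 (−0.40, SE 0.097) lies 6.88 Mb away on the other side, per the authors' deposited table. Genes of both signs are thus among the neighbours, and of the 7 higher ones within 5 Mb Marchf8 alone is named here. The part of the neighbourhood in these values was not tested. The rest of the 10 chromosome 6 genes under 0.001 lie farther from Gt(ROSA)26Sor. Tpi1, Prmt8, Lrrc61 and Tmem209 are at 11.7, 14.7, −64.5 and −82.6 Mb from it, where a minus sign means the side of Cntn4.

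**Figure D5:**
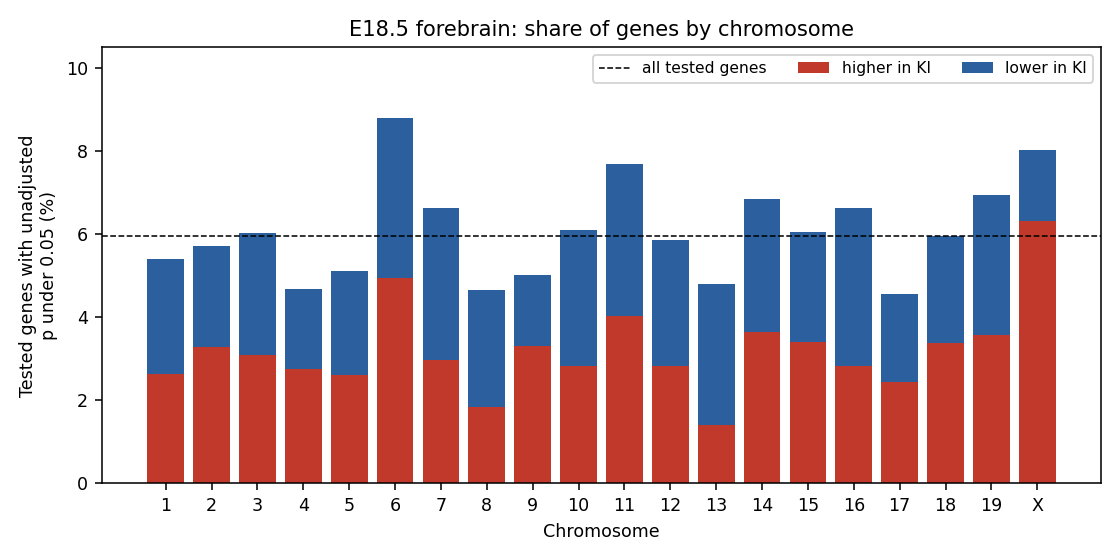
Share of tested genes on each chromosome with an unadjusted p under 0.05, split into higher in KI (lower part of each bar) and lower in KI (upper part); the dashed line is the 5.96% over all tested genes. Chromosome 6 has the tallest bar, 8.81%.

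Gene length did not order the folds, and the level of a gene set how small a change could be called. In 5 equal groups by genomic span, the share of tested genes above 0 was 52.5, 47.1, 45.1, 47.1 and 51.9% from the shortest to the longest, with medians between −0.0093 and 0.0053. In 5 equal groups by mean normalized count, the median SE was 0.184 in the lowest group and 0.044 in the highest. A gene of median SE in the lowest group would have needed a log2 fold change of 0.77 to be called, and one in the highest group 0.18. So a change of the size of Pkm's or Pfkl's was not detectable in genes of low counts.

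At E14.5, the authors' deposited table for that stage called 162 of 13417 genes (1.21%). Of the 9 genes called at E18.5 all had the same sign at E14.5, and 5 were called there, which is 55.6% of the 9 and 3.18% of the 157 genes called at E14.5 and tested at both stages. Per the authors' deposited table the 5 were at 0.64 (Chd8, SE 0.031), 0.23 (Marchf8, SE 0.041), 0.17 (Pkm, SE 0.042), 0.23 (Pfkl, SE 0.051) and −0.51 (Crlf2, SE 0.143) at E14.5. Chmp2a was at −0.17 (SE 0.052, adjusted p = 0.0605) and Mpst at −0.07 (SE 0.057, adjusted p = 0.696) at E14.5 per the authors' deposited table. Read the other way, 132 of the 157 (84.1%) had the same sign at E18.5, and 54 (34.4%) also had an unadjusted p under 0.05. Over all 13106 genes tested at both stages, 57.8% had the same sign. The difference between the stages, tested per gene as the difference of the folds over its combined SE with Benjamini-Hochberg adjustment over those genes, passed for none. At an unadjusted p under 0.05 there were 593 (4.52%), and the lowest adjusted p was 0.350. From the 2 values per the authors' deposited table, E18.5 minus E14.5, Olig1 differed by −0.26 (SE 0.125) and Chmp2a by −0.14 (SE 0.077), each with an adjusted p of 0.999.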

How the data were processed

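RNA sequencing was compared between 5 KI and 5 WT E18.5 forebrains. The submitters' processing notes name Trimmomatic (0.39), HISAT2 (2.1.0), featureCounts (2.0.0), DESeq2 (1.26.0) and build mm10 among other entries; strand settings are not given in the sources used here. Per the file headers, the authors deposited per gene a log2 fold change with its SE, the Wald statistic (a score), raw and adjusted p-values, and the mean of the normalized counts over the libraries. No column holds a single library (0 columns of per-sample values). Depth per library is therefore unknown, no SD or refit could be had, and the authors' Wald test was used in place of a count model. In both tables the deposited Wald score equals the fold over its SE.

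Gene IDs were matched to RefSeq symbols of GRCm38.p6 (15064 of 15449, 97.5%). Computed here, with Python 3.11.15, pandas 2.3.3 and SciPy 1.17.1, were list counts and medians (77 lists), SE ratios, shares by position, motif counts and the stage difference. Only the p-value adjustments, the rescaled statistic, the fold threshold and the stage difference were tested on simulated data. Named genes are Chd8, those with an adjusted p under 0.2, the 8 highest and 8 lowest folds where the mean normalized count reaches 100, and from each list the first 2 tested genes and the 2 of lowest p. Symbols of the form Gm, Rik or LOC are counted but not named. Some genes that the rule names are not reported here. The members, lists and tests were chosen with earlier results of these data known. The alternatives were other adjustments, filters, a rescaled statistic and a fold threshold; 2 were chosen after seeing the data.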

Additional observations from a re-analysis of the deposited data

How the results depend on the processing

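In place of the 9 genes called at E18.5, 18 passed at an adjusted p under 0.1. When adjusted over genes of a mean normalized count of at least 100, 14 passed. With the Wald statistic recentred on its median and divided by its scale (0.949), 19 passed. These settings could only add genes here, so it was fixed in advance that all of the 9 were among each. With the Benjamini-Yekutieli adjustment 4 passed (Chd8, Chmp2a, the gene of ID 100504526 and Marchf8), and Pkm, Crlf2, Pcdhga11, Pfkl and Mpst did not, at adjusted p-values of 0.0849, 0.0863, 0.166, 0.302 and 0.395. Against an absolute log2 fold change of at most 0.1, 2 passed (Chd8 and ID 100504526). Adjusting over every gene with a p-value gave 9 genes. As alternatives chosen after seeing the data, leaving out chromosome 6 gave 8 and leaving out genes whose SE ratio was 3 or more gave 9. The first of these takes out Marchf8, which lies on that chromosome. None of the 9 had such an SE ratio, so it was fixed in advance that the second would lose none of them. Chd8 kept its call under both of its alternatives, but with an adjusted p of 1.34e-37 it could hardly have lost it. Its direction could not change, because the same deposited fold was used. When the stage difference was adjusted over the 161 genes called at either stage alone, 38 passed in place of 0, but those genes were chosen by their values at these stages. Centring each stage on its median gave 0. Of list medians at least 0.05 from 0, 1 of 74 recomputed values changed sign, that of Cajal-Retzius cells. No paired analysis was possible because the tables hold no values per library; for the same reason no library could be left out. Depth per library is unknown, and a gene of median SE needed a log2 fold change of 0.31 to be called.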
